A study of Saccharomyces cerevisiae with 8 samples.

Results

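The 7 genes HIS1 to HIS7, which encode the enzymes of histidine synthesis in budding yeast, were examined among 6002 protein-coding genes by their CAGE-seq start peaks. The rule takes them by pathway and uses no measured value, but it was set with earlier results of these data known. CAGE-seq captures the capped 5′ ends of RNA, so that a peak marks a place where transcription starts. A start peak was a peak on the gene's strand whose 5′ end lay from 300 bp upstream to 50 bp downstream of the start codon.

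There were 8 libraries, each from a yeast strain that carried HPRT1, a synthetic human locus, or HPRT1R, the same sequence reversed without complementing it. The HPRT1 episome and HPRT1R episome strains held the locus on a yeast artificial chromosome with a LEU2 marker and were grown in SC-Leu, a synthetic medium without leucine. The HPRT1 integrated and HPRT1R integrated strains held it in chromosome XI and were grown in YPD, a rich medium. Each of these 4 groups had 2 replicates, so that 4 libraries came from SC-Leu and 4 from YPD. All strains derive from BY4741 (MATa his3Δ1 leu2Δ0 met15Δ0 ura3Δ0), which cannot make histidine because HIS3 is partly deleted. SC-Leu still contains histidine. Integration was done with Cre recombinase from a HIS3-marked plasmid. Whether any plasmid remained in the cultures used for CAGE-seq was not tested. Cultures were grown at 30 °C from OD 0.1 for 6 h to about OD 0.6. Medium and genomic context divide the libraries in the same way and cannot be told apart, so that every difference between SC-Leu and YPD is also one between episomal and integrated strains.

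Histidine is built from phosphoribosyl pyrophosphate (PRPP) and ATP, and the pathway is linked to purine synthesis through a by-product. In yeast its genes lie scattered over the chromosomes and many of them answer to Gcn4, the activator of general amino acid control, which binds the core TGACTC. Bas1, a regulator of purine and histidine genes that works with Pho2, reads the same core. His1 (ATP phosphoribosyltransferase) catalyses the first step, and His4 carries several activities of the early steps and of the last. His6 is an isomerase, His7 closes the imidazole ring, His3 is a dehydratase, His5 is an aminotransferase and His2 is the phosphatase that makes histidinol.

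The starts on which the results turn are shown as reference sequence of the R64 build, 5′ to 3′ on the gene's strand and ending with the start codon. Capitals mark TGACTC and TATAAA on either strand, the stretch between the farthest and the nearest 5′ end of the start peaks, and the final ATG. The windows are HIS3 at chrXV:721816-721948 (+), HIS4 at chrIII:68331-68595 (-), HIS5 at chrIX:142718-142930 (+) and HIS2 at chrVI:204748-204820 (-).
HIS3: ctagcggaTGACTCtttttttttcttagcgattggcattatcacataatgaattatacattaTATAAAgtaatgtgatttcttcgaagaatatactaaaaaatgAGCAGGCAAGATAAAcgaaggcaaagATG
HIS4: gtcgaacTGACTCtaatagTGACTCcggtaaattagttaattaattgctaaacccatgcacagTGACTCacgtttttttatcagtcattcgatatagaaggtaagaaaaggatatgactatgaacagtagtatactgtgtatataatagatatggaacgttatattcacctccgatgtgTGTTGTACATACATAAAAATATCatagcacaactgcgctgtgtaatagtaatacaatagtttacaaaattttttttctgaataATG
HIS5: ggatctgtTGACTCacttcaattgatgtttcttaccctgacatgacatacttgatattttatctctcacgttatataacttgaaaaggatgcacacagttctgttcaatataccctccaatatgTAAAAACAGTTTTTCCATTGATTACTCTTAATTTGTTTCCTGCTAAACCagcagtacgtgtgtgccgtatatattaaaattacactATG
HIS2: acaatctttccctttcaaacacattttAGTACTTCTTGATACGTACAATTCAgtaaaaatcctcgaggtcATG
HIS3, HIS4 and HIS5 are shown from just before the core nearest to the start codon, or in HIS4 from the farthest of its 3 cores. HIS2 is shown because it alone lacked the core. Within 300 bp upstream to 50 bp downstream of the start codon, TGACTC or its complement GAGTCA was found in 6 of the 7 genes and in 9.46% of all 6002 windows of the same length. HIS4 had 3 such cores, with first bases 255, 243 and 199 bp upstream. HIS1, HIS3 and HIS7 had 2 each, and HIS5 and HIS6 had 1 each. TATAAA or TTTATA was found in 3 of the 7 genes and in 49.9% of windows. In HIS3 it lay 68 bp upstream, and in HIS5 it lay inside the coding sequence. The 2 motifs do not share bases. A match to these letters is a description and not a binding site.

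Start peaks were found for 6 of the 7 genes in at least 1 library, for 5 in at least 4 libraries and for none in all 8. For comparison, 41% of all genes had a start peak in at least 4 libraries and 1190 genes had one in all 8. Peak height is the number of reads stacked at the summit after extension to 200 bp, per 1000000 aligned reads of the library (RPM). In units of 1000000 (M), libraries had 6.48 to 8.85 M aligned reads, and 38.4% to 43.1% of genes had a start peak in each. The lowest height called, which is taken here as the floor of a library, was 8.48 to 9.65 RPM on the forward strand and 13.7 to 14.6 RPM on the reverse strand. A gene without a start peak had no peak in this window that the caller accepted, and is not necessarily silent. The genes with a start peak numbered 6 in HPRT1 episome 1 and 2 in HPRT1R integrated 1, with 3 or 4 in each other library. The labelled strain was checked by mating-type genes. MFA1 and MFA2, which encode a-factor, had start peaks in all 8 libraries, STE2 had one in 1 library and BAR1 in none. Of the α markers, MF(ALPHA)1 had a start peak of 31.2 RPM in HPRT1R integrated 2, and MF(ALPHA)2, STE3 and SAG1 had none. Of the other deleted genes, LEU2 had a start peak in all 4 SC-Leu libraries and in no YPD library, and MET17 (also called MET15) and URA3 had none.

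**Figure D1:**
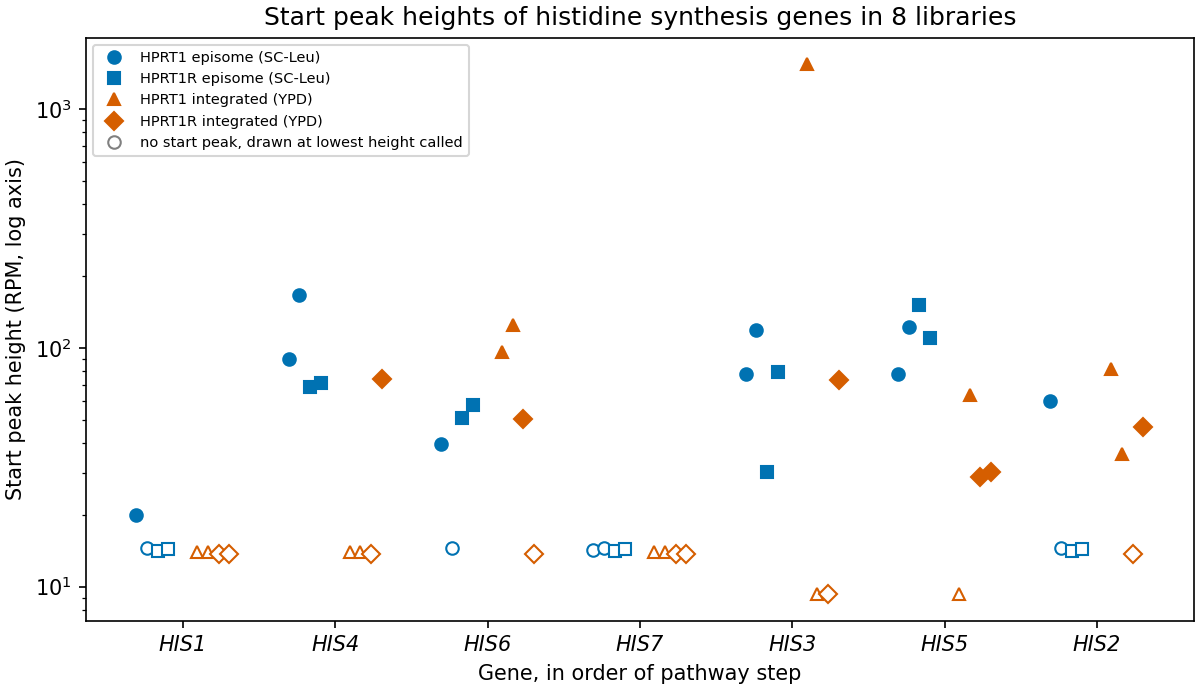
Height of the start peak (RPM, log axis) of each histidine synthesis gene in each of the 8 libraries, with SC-Leu in blue and YPD in orange, and open symbols for libraries without a start peak drawn at the lowest height called on that strand. HIS5 is the gene whose SC-Leu and YPD heights do not overlap, and the HIS3 point at 1545 RPM in HPRT1 integrated 1 lies above all others.

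HIS1, at the head of the pathway (YER055C, chrV:264892-265785, minus strand), had a start peak in 1 library. In HPRT1 episome 1 it reached 19.9 RPM, with its 5′ end 104 bp upstream of the start codon. This peak ranked in percentile 12.2 among the start peaks of that library. FCY2, the same-strand gene next upstream and a purine-cytosine permease, had start peaks in 6 libraries at 18.1 to 86.6 RPM.

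HIS4 (YCL030C, chrIII:65934-68333, minus strand), the multifunctional enzyme of the early and last steps, had a start peak in all 4 SC-Leu libraries and in 1 YPD library. Its height was 90.0 RPM in HPRT1 episome 1, 167 RPM in HPRT1 episome 2, 68.4 RPM in HPRT1R episome 1 and 71.1 RPM in HPRT1R episome 2. In YPD it was 74.2 RPM in HPRT1R integrated 2, and the other 3 libraries were at the floor. The media overlapped, because that YPD library exceeded both HPRT1R episome libraries. The 5′ ends of its peaks lay 61 to 83 bp upstream, nearer to the start codon than all 3 cores.

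HIS6 (YIL020C, chrIX:314035-314820, minus strand), the isomerase, had a start peak in 3 libraries of each medium. Its height in SC-Leu was 39.8 RPM in HPRT1 episome 1, 50.9 RPM in HPRT1R episome 1 and 57.5 RPM in HPRT1R episome 2. In YPD it was 96.4 and 125 RPM in HPRT1 integrated 1 and 2 and 50.7 RPM in HPRT1R integrated 1. The highest values came from the HPRT1 integrated strain, and the media overlapped. No start peak was called in HPRT1 episome 2 or in HPRT1R integrated 2. FAF1, which runs away from HIS6 on the other strand, had no start peak in any library.

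HIS7 (YBR248C, chrII:714807-716465, minus strand), the glutamine-using synthase that closes the imidazole ring, had no start peak in any library. No same-strand peak began within 1000 bp upstream of its start codon either, and no fold can be given. The gene next upstream on the same strand, ARO4, which encodes an enzyme at the entry to aromatic amino acid synthesis, ended 416 bp before HIS7. It had start peaks in all 8 libraries, at 361 to 532 RPM in YPD and 587 to 863 RPM in SC-Leu. The groups did not overlap for ARO4, with an adjusted p of 0.129 in the limma fit described after the members.

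HIS5 (YIL116W, chrIX:142928-144085, plus strand), the aminotransferase, had a start peak in all 4 SC-Leu libraries and in 3 YPD libraries. Its height was 77.5 and 123 RPM in HPRT1 episome 1 and 2, and 151 and 110 RPM in HPRT1R episome 1 and 2. In YPD it was 63.8 RPM in HPRT1 integrated 2, 28.8 RPM in HPRT1R integrated 1 and 30.2 RPM in HPRT1R integrated 2, and at the floor in HPRT1 integrated 1. Each SC-Leu library was higher than each YPD library. A second peak on the same strand, 278 to 333 bp inside the coding sequence, was called in all 4 YPD libraries and in 2 SC-Leu libraries, at 9.80 to 52.0 RPM. In HPRT1 integrated 1 this inner peak, at 24.4 RPM, was the only same-strand peak at HIS5.

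HIS2 (YFR025C, chrVI:203743-204750, minus strand), the histidinol phosphatase, had a start peak in 1 SC-Leu library and in 3 YPD libraries. Its height was 60.2 RPM in HPRT1 episome 1. In YPD it was 81.4 and 36.0 RPM in HPRT1 integrated 1 and 2 and 46.7 RPM in HPRT1R integrated 2. The media overlapped, and the remaining 4 libraries were at the floor. In 3 of these 4 a same-strand peak of 17.9 to 37.3 RPM lay 149 to 336 bp inside the coding sequence. Peaks on the opposite strand, with 5′ ends 65 and 84 bp inside the coding sequence and running towards the HIS2 start, were called in 2 SC-Leu libraries at 28.6 and 11.96 RPM.

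**Figure D2:**
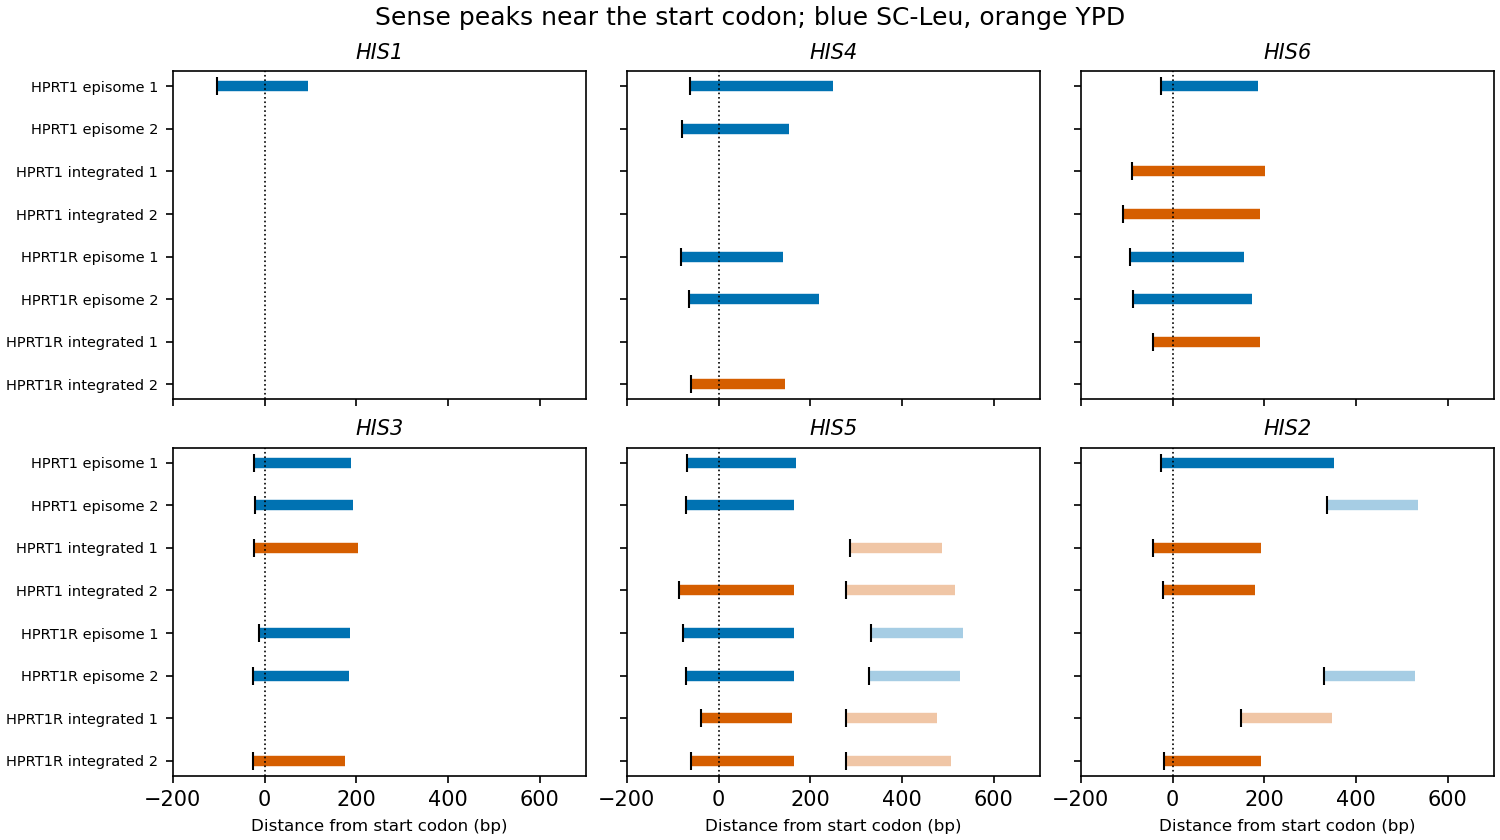
Same-strand peaks of 6 histidine synthesis genes by library, drawn by distance from the start codon in bp (dotted line at 0), with the 5′ end as a black tick, SC-Leu in blue and YPD in orange, and paler bars for peaks outside the start window. HIS3 start peaks begin within 14 bp of each other, and HIS5 has a second, inner peak that begins 278 to 333 bp inside the coding sequence in 6 libraries.

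The 5′ ends of the start peaks varied among the genes. They lay 12 to 26 bp upstream of the start codon for HIS3 and 19 to 43 bp for HIS2. HIS5 had them at 38 to 86 bp and HIS6 at 26 to 109 bp. Peaks in HIS3 had the narrowest spread, 14 bp over 6 libraries, and those in HIS6 the widest, 83 bp over 6 libraries. The lowest peak began nearest the start codon in HIS6 (39.8 RPM), HIS5 (28.8 RPM) and HIS3 (30.2 RPM), but not in HIS4 or HIS2. Whether the spread follows peak height was not tested. Other peaks at these genes were seen in 1 library each. HPRT1R integrated 2 had peaks on the opposite strand inside HIS1 (34.9 RPM) and HIS5 (18.6 RPM), and HPRT1 episome 1 had a same-strand peak of 21.9 RPM that began 1891 bp inside HIS4. The 5′ end of a peak is the edge of a stack of reads and not a single start base. Peak summits lay further into the gene, since each read is extended to 200 bp.

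HIS3 (YOR202W, chrXV:721946-722608, plus strand), the dehydratase used as a selectable marker in yeast, had a start peak in 6 of 8 libraries although the strain is his3Δ1. Its height was 78.0 and 119 RPM in HPRT1 episome 1 and 2, and 30.2 and 79.3 RPM in HPRT1R episome 1 and 2. In YPD it was 1545 RPM in HPRT1 integrated 1 and 73.5 RPM in HPRT1R integrated 2. The other 2 YPD libraries were at the floor. The media overlapped, and 1 YPD library stood above the other 7.

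All 6 start peaks of HIS3 began 12 to 26 bp upstream of the start codon, downstream of the TATAAA and the nearer core, so that they lie where the promoter and the first part of the gene meet. They ended 176 to 204 bp inside the reference coding sequence of 663 bp. These ends follow from the extension to 200 bp and do not show how far transcripts run. His3Δ1 is an internal deletion whose ends are not given in the sources used here. As landmarks, HindIII sites (AAGCTT) lie 304 and 494 bp inside the coding sequence, beyond the ends of all 6 peaks. No same-strand peak began inside the coding sequence in any library. The next one, 936 to 945 bp past the HIS3 start codon, is the start of DED1, an RNA helicase gene, and was called in all 8 libraries at 44.4 to 116 RPM.

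**Figure D3:**
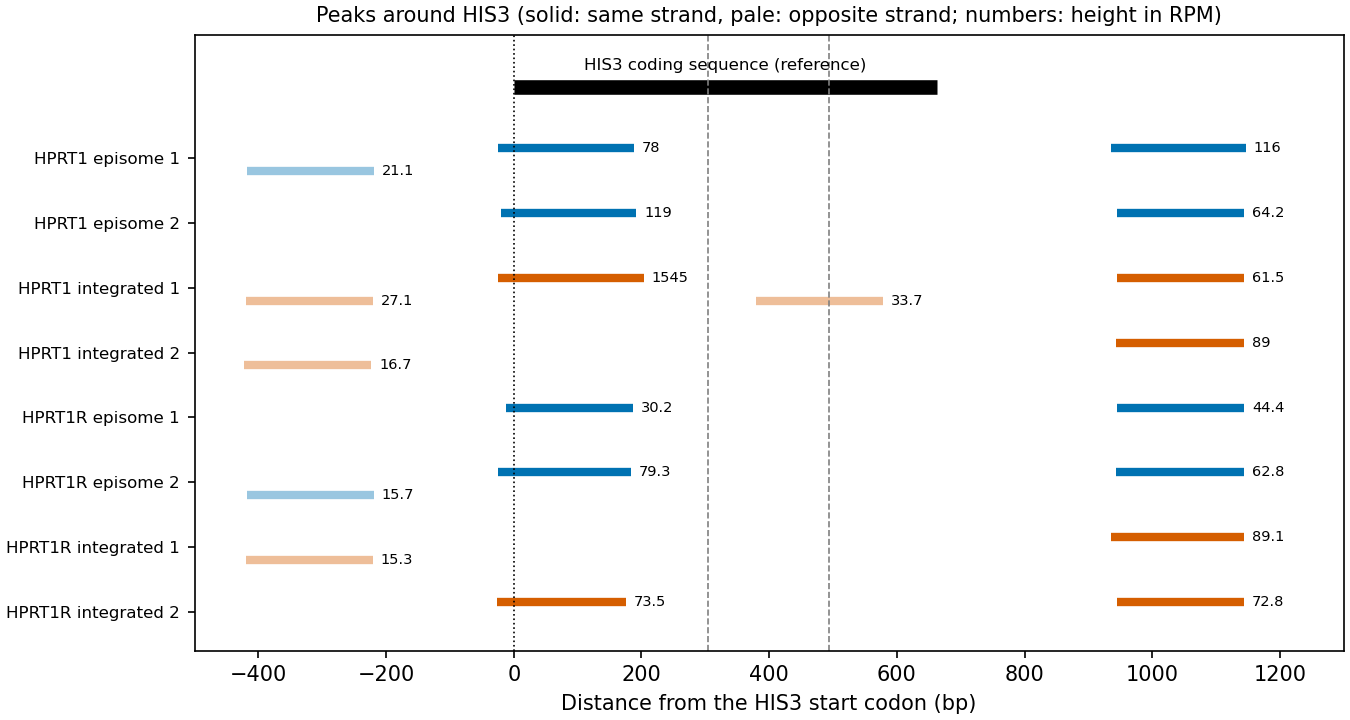
Peaks around HIS3 in each library by distance from its start codon in bp, with SC-Leu in blue and YPD in orange, solid bars for the HIS3 strand and pale bars for the opposite strand, heights in RPM beside each bar, and dashed lines at the HindIII sites 304 and 494 bp inside the coding sequence. The start peak lies before the first site in all 6 libraries that have it, and in HPRT1 integrated 1 it reaches 1545 RPM while the DED1 start peak there is 61.5 RPM.

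The HIS3 peak of HPRT1 integrated 1 was 13.0 times as high as that of the next library and ranked 88 among the 2306 start peaks of its own library. It held 11978 reads at its summit. Its 5′ end, 24 bp upstream, lay within the range of the other 5 libraries. In that library HIS3 was 25.1 times as high as DED1, against 0.672 to 1.85 times in the other libraries with both. A peak of 33.7 RPM on the opposite strand, with its 5′ end 579 bp inside the coding sequence, was called in that library and in no other. MRM1, the divergent gene on the other side of the promoter and a mitochondrial ribosomal RNA methyltransferase, had start peaks in 5 libraries at 15.3 to 27.1 RPM, the highest in HPRT1 integrated 1. The library was within the range of the others in depth. Whether its HIS3 reads came from the chromosomal gene or from the HIS3-marked plasmid used for integration was not tested. Over all libraries, 7 gene and library pairs stood 10 or more times above the next library. The leading pairs in 4 further libraries were those of SOP4, RTT105, HOG1 and BOL2, each with a start peak in 1 library alone, whereas HIS3 had one in 6.

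Heights in SC-Leu and YPD were compared by limma over 2458 genes with a start peak in at least 4 libraries, with a missing height set to the floor of that strand and library. Of these genes, 24 (0.976%) were higher in SC-Leu and 19 (0.773%) lower at an adjusted p under 0.05. The 24 include LEU2, which is deleted in BY4741 and is the marker carried with the episomal locus. The balance moved with the scale, to 29 higher and 10 lower with heights divided by the library's median and to 8 and 4 with the authors' fold enrichment. None of the 5 histidine genes tested passed in either direction. At an unadjusted p under 0.05, HIS4 and HIS5 were higher in SC-Leu, which is 2 of 5 against 4.92% of all genes tested. HIS4 reached the 4 libraries needed for this fit through its SC-Leu peaks, since it had 1 YPD peak. Its place in this count rests largely on the floor, so the share is a description and not a test. Without overlap between the media, 1 of the 5 (HIS5) was higher in SC-Leu, against 3.21% of genes. A start peak in all 4 SC-Leu libraries and in at most 2 YPD libraries was found for HIS3 and HIS4. These are 2 of the 6 histidine genes with a start peak in 1 to 7 libraries, against 3.35% of all such genes. This cutoff was not planned, and over all genes only the SC-Leu direction was counted. HIS2 went the other way, with 1 SC-Leu and 3 YPD libraries, and the highest HIS3 peak, 1545 RPM, was in YPD.

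For HIS4 the log2 difference, SC-Leu minus YPD, was 2.13 ± 0.67 (SE, 4 libraries per medium), with an adjusted p of 0.129 by limma. An exact two-sided permutation test of this gene alone, not adjusted over genes, gave a p of 0.0857. The log2 difference was 2.73 with an adjusted p of 0.0461 by limma when HPRT1R integrated 2, the YPD library with a HIS4 peak, was left out. All YPD heights in that fit were at the floor, so that this p rests on no YPD peak. For HIS5 the log2 difference was 2.07 ± 0.61 (SE), with an adjusted p of 0.0960 by limma. The exact two-sided permutation p for HIS5 was 0.0286, the smallest that 4 against 4 libraries can give, and is not adjusted over genes. Without HPRT1 integrated 2, the YPD library with the highest HIS5 peak, the adjusted p for HIS5 by limma was 0.0450. With any other library left out it was 0.141 to 0.242 by limma. The 95% intervals by limma were 0.74 to 3.52 for HIS4 and 0.80 to 3.33 for HIS5. Each is for its gene alone and is not adjusted over genes. Neither includes 0, but with all libraries in the fit neither gene passed after adjustment. The differences and intervals depend on the floor, since HIS4 had 3 libraries and HIS5 had 1 library set to it.

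The other 3 genes gave no call under any setting. HIS3 had a log2 difference of 0.29 ± 1.09 (SE) and an adjusted p of 0.951 by limma. Without HPRT1 integrated 1 it was 1.89, with an adjusted p of 0.329 by limma, and without HPRT1 integrated 2 or HPRT1R integrated 1 it was -0.57. HIS6 had a log2 difference of -0.58 ± 0.72 (SE), and HIS2 had -0.85 ± 0.72 (SE), with adjusted p of 0.834 and 0.716 by limma. The interval for HIS6, -2.09 to 0.93, and that for HIS2, -2.35 to 0.65, include differences of either sign. The median over the 5 genes was 0.29 and that over all genes tested was -0.10. The difference between media was not shown to differ between HPRT1 and HPRT1R strains for any of the 5, and the smallest unadjusted interaction p by limma was 0.0239, for HIS6, with an adjusted p of 0.698.

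**Figure D4:**
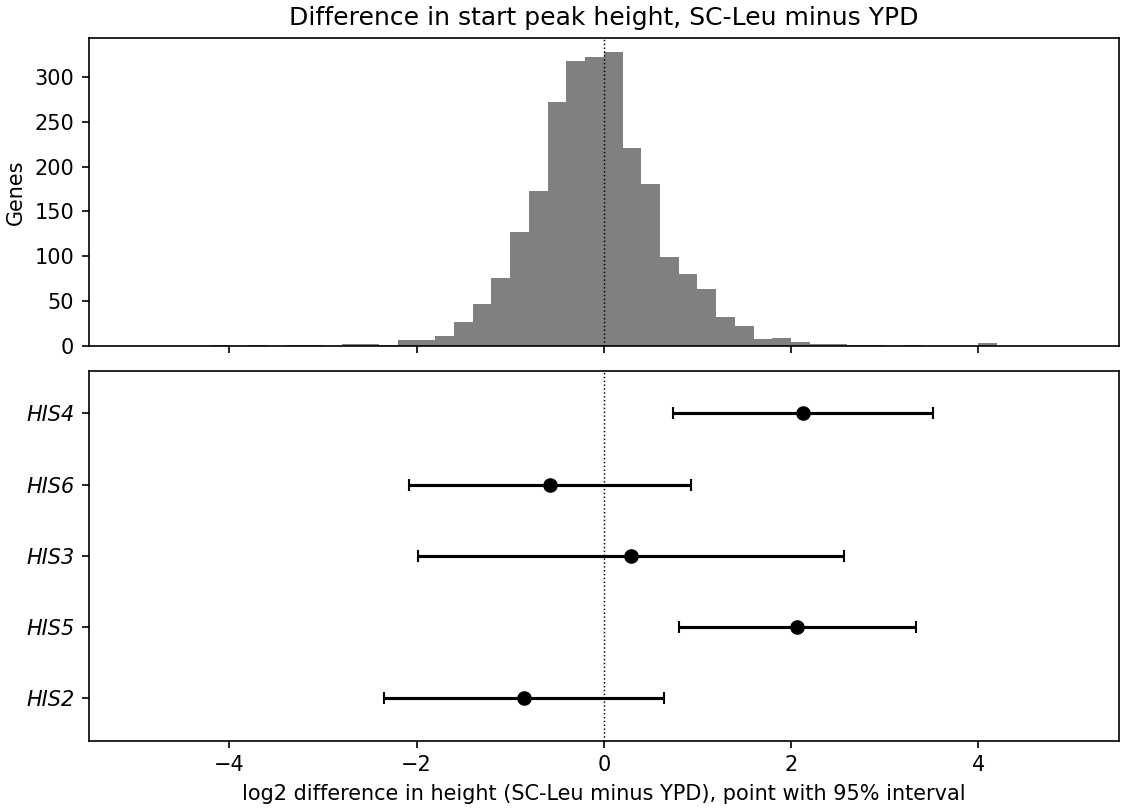
Top, number of genes by log2 difference in start peak height, SC-Leu minus YPD, over the 2458 genes tested. Bottom, the same difference for the 5 histidine synthesis genes tested, as points with 95% intervals on the same axis. HIS4 (2.13) and HIS5 (2.07) lie in the right tail and HIS3, HIS6 and HIS2 have intervals across 0. The intervals are not adjusted over genes, and none of the 5 passed after adjustment.

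The number of libraries with a start peak was also compared by Fisher's exact test. None of the 2653 genes with a start peak in 1 to 7 libraries passed after adjustment, and 12 had an unadjusted p under 0.05. The smallest p that this test can give with 4 against 4 libraries is 0.0286. After adjustment over 2653 genes such a p passes only if most genes reach it, so the lack of calls decides nothing. HIS4, with 4 of 4 against 1 of 4 libraries, had the smallest value of the histidine genes, an exact p of 0.143.

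Genes around the pathway were described by the same fit. Of 9 genes that supply PRPP, recycle its purine by-product, or handle histidine as a transporter or transfer RNA synthetase, 6 were tested and none passed, with a median log2 difference of -0.13. HTS1, the histidyl-tRNA synthetase, had 84.1 to 166 RPM in SC-Leu and 52.3 to 131 RPM in YPD, and HIP1, the histidine permease, had start peaks in 5 libraries at 12.2 to 29.6 RPM. Of 6 regulators, 2 were tested and none passed. GCN4, GCN2, GCN1 and BAS1 had no peak in the start window in any library. The window is too short for GCN4, whose messenger RNA is known for a long leader with upstream reading frames. A same-strand peak 573 or 574 bp upstream of the GCN4 start codon was called in 1 SC-Leu library at 15.8 RPM and in 3 YPD libraries at 20.3 to 33.9 RPM, and was not tested. GCN2 had a same-strand peak 767 bp upstream in 1 YPD library, at 31.2 RPM. GCN1 and BAS1 had no same-strand peak within 1000 bp upstream. GCN20 and PHO2 had log2 differences of -1.14 and -0.08.

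Of 31 genes of other amino acid pathways, 20 were tested, 4 were higher in SC-Leu, none was lower and 16 did not pass, with a median log2 difference of 0.89. ARG4, the argininosuccinate lyase, rose most among those with a start peak in all 8 libraries, from 70.5 to 115 RPM in YPD to 463 to 871 RPM in SC-Leu, with a log2 difference of 2.83 ± 0.29 (SE) and an adjusted p of 3.3e-06 by limma. ILV3, the dihydroxyacid dehydratase of branched-chain synthesis, had 181 to 286 RPM in YPD and 732 to 1087 RPM in SC-Leu. LEU4, an isopropylmalate synthase of leucine synthesis, had 316 to 440 RPM in YPD and 643 to 799 RPM in SC-Leu. ARG1, the argininosuccinate synthase, had a start peak in the 4 SC-Leu libraries alone, at 58.9 to 300 RPM. ARG4, ILV3 and LEU4 passed with each library left out in turn, and ARG1 did so with all its YPD heights set to the floor. ARG1 entered the fit through its SC-Leu peaks alone, so that its call rests on the floor. Of the 10 list genes with a start peak in all 8 libraries, 3 were higher in SC-Leu in the fit over such genes. TRP3, of tryptophan synthesis, had a log2 difference of 1.95 ± 0.64 (SE), close to those of HIS4 and HIS5, and an adjusted p of 0.159 by limma.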

How the data were processed

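RNA from 8 cultures was turned into CAGE libraries with 5 µg of RNA and 20 PCR cycles, and read as 75-bp pairs. Per the study's methods and processing notes, the authors aligned the 5′ read of each pair with Bowtie2 2.2.9 to sacCer3 plus the synthetic sequence and called peaks with MACS2 2.1.0 on each library and strand, keeping duplicate reads and without pooling replicates. Replicates were 2 colonies per strain. The 32 deposited lists give, per peak, a score, the fold enrichment (ratio) over local background, and −log10 p and −log10 q values (p-value and q-value) at the summit. The score deposited by the authors was not used.

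Pileup and background were solved from fold and p. Of 45253 peaks with a pileup under 2000, 100% were within 0.05 of a whole number of reads, and the lowest background gave the aligned reads. Lists called with the locus as a separate sequence were used, and those with the locus within chromosome XI were an alternative. Gene positions and sequences came from the RefSeq R64 assembly, the equivalent of sacCer3. Depth was 6.48 to 8.85 M aligned reads per library (M, 1000000). Reads carried no molecular identifiers, so duplicates cannot be told from molecules. P-values rest on the spread between these libraries, with colonies of the same strain counted as independent. Where missing heights were set to the floor, that spread is partly given by the floor and is not all measured between cultures.

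The planned fit over genes with a start peak in all 8 libraries held no histidine gene. The fit with missing heights at the floor therefore gives the values for the members, and the exact permutation test (70 splits) was moved to those heights after the data were seen. Tests used limma 3.58.1 (R 4.3.3, eBayes with trend, log2 RPM without a pseudocount, Benjamini-Hochberg over all genes tested) and SciPy 1.17.1. Scripts were tested on simulated data. Alternatives covered the height measure, scaling, window, threshold, reference, floor, block and each library left out.

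The text names the 7 members, the genes of the lists that passed, marker genes and the genes next upstream. ARO4, MRM1, FCY2 and FAF1 are such neighbours, and BIK1, PRM5 and ULI1, upstream of HIS4, HIS5 and HIS2, had start peaks in 1 or 2 libraries. GCN1, GCN2, GCN4, BAS1, DED1, SOP4, RTT105, HOG1, BOL2, HTS1, HIP1, GCN20, PHO2 and TRP3 were named after their values were seen, and the peaks upstream of the regulators were looked up after the data were seen. The rule for genes with a like pattern gave none, since no member had a start peak in all 8 libraries. Members and lists were chosen with earlier results of these data known.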

Additional observations from a re-analysis of the deposited data

Results flagged for a closer look

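Of 10 gene and medium groups of 4 libraries tested for a library far from the others, 3 had one by Dixon's test of the gap to the next library over the range at its 95% critical value. The test used heights in RPM and not the log2 heights of the fits, so a flag can depend on that scale. Chance flags about 1 in 20 groups, and where the other libraries are at the floor a single called peak is enough. HIS3 in YPD was 1545 RPM in HPRT1 integrated 1, with a gap of 0.958 of the range. HIS4 in YPD was 74.2 RPM in HPRT1R integrated 2, with a gap of 0.996 of the range, the other 3 libraries being at the floor. HIS2 in SC-Leu was 60.2 RPM in HPRT1 episome 1, with a gap of 0.990 of the range, the other 3 being at the floor.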

How the results depend on the processing

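No histidine gene passed under the alternatives other than those named here. By limma, adjusted p ran from 0.0461 to 0.326 for HIS4 and from 0.0450 to 0.242 for HIS5 as each library was left out, with log2 differences of 1.85 to 2.73 and 1.56 to 2.48. HIS4 passed without HPRT1R integrated replicate 2 (2.73), where its YPD heights were all at the floor. HIS5 passed without HPRT1 integrated replicate 2 (2.48), its highest YPD library. The exact permutation test gave 0.0286 for HIS5 at a log2 difference of 2.07, unadjusted. HIS3 was below 0 at a minimum −log10 q of 20 (-0.15) and ranged from -0.57 to 1.89 with a library left out. HIS1 lost its one start peak at that minimum (0 SC-Leu libraries). With summits in place of 5′ ends, median positions moved to 78 bp (HIS4), 49.5 bp (HIS6), 122.5 bp (HIS3), 49 bp (HIS5) and 119 bp (HIS2) inside the gene.

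Over all genes with missing heights at the floor, 24 were higher and 19 lower in SC-Leu. With the authors' fold these were 8 and 4, median scaling gave 29 and 10, a window of 200 bp upstream gave 10 lower, and leaving out a library gave 20 to 28 higher and 9 to 21 lower. Over the 1190 genes with a start peak in all 8 libraries, the planned fit gave 22 higher and 22 lower. For these genes the authors' fold gave 5 higher and 1 lower, and median scaling 29 higher and 10 lower. Leaving out a library gave 12 to 21 higher and 11 to 22 lower. Median scaling moved the median of all genes from -0.10 to 0.01. A replicate block gave 24 higher and 17 lower and changed no call of a histidine gene. Same-numbered libraries deviated with r of -0.0577 to 0.0118, so they share only a number. The cause of these shifts was not tested.

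No height is given for a start without a called peak, and the lowest heights called were 8.48 to 9.65 RPM on the forward and 13.7 to 14.6 RPM on the reverse strand. HIS7 has no value and HIS1 has 1. Genes with long leaders can have starts outside the window. Medium and context cannot be told apart.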
